A study of Saccharomyces cerevisiae with 10 samples.

Results

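The strains described here lack single genes of the mitochondrial respiratory chain or of the ATP synthase of budding yeast, Saccharomyces cerevisiae. They were chosen by gene symbol from a list of 58 genes for respiratory complexes II, III and IV, the ATP synthase, their assembly factors and cytochrome c heme lyase. Of these, 56 were found among the 5325 deletion strains named on the array, and COX4 and COX13 were not analysed here. The 56 strains were 16 for the ATP synthase, 13 for complex III, 22 for complex IV, 4 for complex II and CYC3. All 56 had values on all 10 arrays.

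The respiratory chain in the inner mitochondrial membrane passes electrons from substrates to oxygen. Complex II is succinate dehydrogenase, complex III hands electrons from ubiquinol to cytochrome c, and complex IV is cytochrome c oxidase. The proton gradient built by complexes III and IV drives the ATP synthase, a rotary enzyme with a catalytic F1 head, a stalk and a membrane-embedded Fo part. Some subunits are encoded in mitochondrial DNA, so dedicated nuclear factors for their mRNAs and for assembly are needed as well. Yeast can grow by fermentation without respiration, and deletion of most of these genes leaves viable cells. Benomyl binds tubulin and breaks down microtubules.

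All groups came from 1 kind of pool. Heterozygous diploid knockout strains, 5896 in the pool per the labels, were sporulated, and MATa haploids were selected on magic medium at 30 °C with or without benomyl. Each array compared a pool with 0, 1, 5, 10, 15, 20, 25, 30, 35 or 40 µg/ml benomyl with a pool without drug that had the same time of selection, which was 2 days for the 4 lowest doses, 3 days for 15 µg/ml and 4 days for the doses above. At 0 µg/ml neither pool had received drug. Strain abundance was read from DNA tags amplified from genomic DNA, and each deletion is 1 strain.

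The value of a strain is a log2 ratio centred on the median of its array, likely of the untreated pool to the benomyl pool. A positive ratio then means that the strain made up less of the benomyl pool, judged against the median strain. The basis of this direction is the dyes in the labels, and it is not settled: with the opposite numerator every sign below would be reversed. A lower share in the drug pool and a higher share in the pool without drug cannot be told apart in a ratio. The doses had no replicate arrays, so p-values measure how far individual arrays lie from a fitted line or from the mean of neighbouring doses. Dose and days of selection rose together and cannot be told apart across the whole series. The SD over all strains went from 0.506 at 0 µg/ml to 1.459 at 40 µg/ml. On the 10 µg/ml array only 5.43% of the ratios were whole hundredths, against at least 99.97% on the others (tolerance 0.02), so its values were prepared differently before deposit. Spots of a strain lie in separate sections of the array, taken to hold its different tags, and the sections correlated across all strains at -0.048 at 0 µg/ml and at up to 0.672 at 35 µg/ml. Genes needed for haploid growth served as a background, since signal for them need not come from a haploid deletion strain. Of 39 such strains 0 were called in the dose trend, against 10.3% of all strains that rose and 9.13% that fell. Limma's unadjusted p there was under 0.05 for 1 of the 39 that rose and 3 that fell, and for 1000 and 775 of all 5325. The median of the 39 at 5 µg/ml was -0.07. In the comparison of 5 and 10 with 0 and 1 µg/ml, 1 of the 39 was called, against 1.18% of all strains that rose. It was NDC80, which encodes a kinetochore protein, at 1.89. At 25 to 40 against 15 and 20 µg/ml 1 rose and 1 fell, CDC28 at 2.54 and FAS1 at -2.72, against 5.01% and 4.92% of all strains. NDC80, CDC28 and FAS1 were named after their values were seen.

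The first question was how the strains moved across the doses, complex by complex. ATP synthase strains had high ratios from 5 µg/ml on, while strains of complexes III and IV stayed nearer to the array median. The median over the 16 ATP synthase strains was -0.03, -0.07, 1.72, 1.36, 1.01, 1.09, 1.45, 1.71, 1.86 and 1.43 in order of dose. Over the 35 strains of complexes III and IV it was -0.06, 0.05, 0.44, 0.22, 0.13, 0.05, 0.37, 0.67, 0.74 and 0.23. The ATP synthase course was thus at the array median up to 1 µg/ml, high from 5 µg/ml on and lower at 15 and 20 µg/ml than on either side, and the median over all strains stayed between -0.01 and 0.06 throughout. The number of ATP synthase strains at least 2-fold above the array median was 0, 1, 13, 10, 9, 9, 12, 12, 12 and 11 of 16. Among all strains, 2.42%, 3.91%, 6.29%, 5.37%, 4.3%, 5.71%, 10.6%, 11.1%, 14.8% and 19.3% lay that high. Among the 56 strains, the number at least 2-fold below the median was 0, 0, 1, 2, 0, 1, 0, 1, 1 and 3. Among all strains it was 3.83%, 3.55%, 12.1%, 12.7%, 7.46%, 7.1%, 9.88%, 12.5%, 14.3% and 18.1%. In complexes III and IV together, 1 strain of 35 was that high at 5 µg/ml and 12 were at 35 µg/ml.

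**Figure D1:**
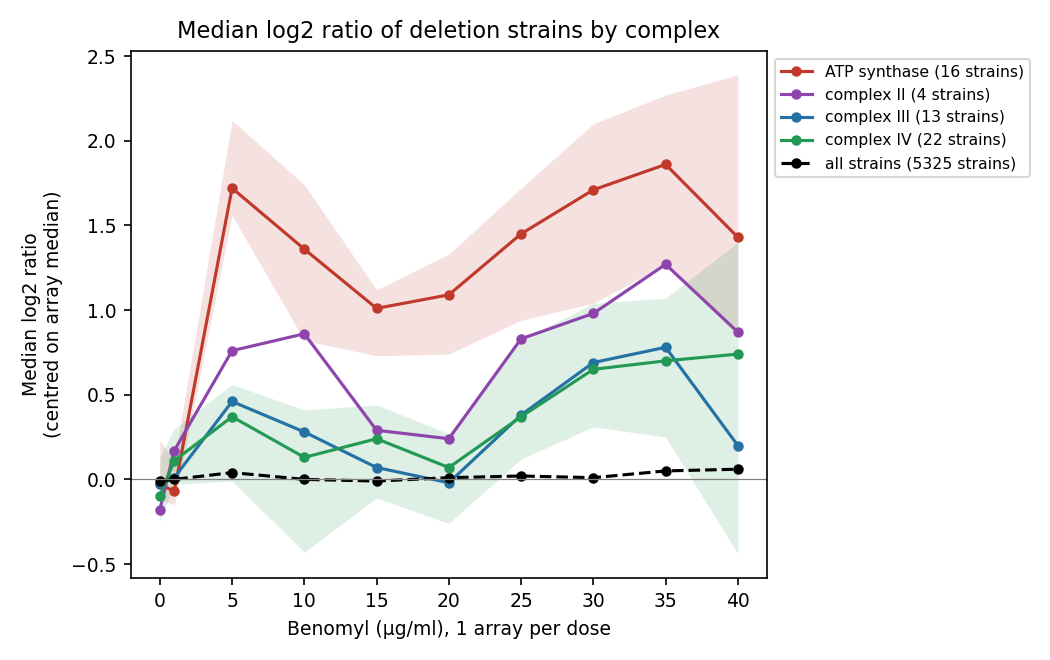
Median log2 ratio (vertical axis, centred on the array median) of the strains of each complex against benomyl dose in µg/ml, with 1 array per dose; shaded areas run from the lower to the upper quartile of the ATP synthase strains (red) and of the complex IV strains (green), and the dashed line is the median of all strains. The ATP synthase median is 1.72 at 5 µg/ml, where those of complexes III and IV are 0.46 and 0.37.

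From 5 µg/ml on, part of the ATP synthase strains lay above every strain of complexes III and IV. At 0 and 1 µg/ml that number was 0 of 16. At 5 µg/ml, 12 of the 16 ATP synthase strains lay above the highest strain of complexes III and IV, COX6 at 1.49. It was largest at 20 µg/ml, with 13, and at 40 µg/ml it was 6. The difference of the medians was between 0.88 and 1.28 on the 8 arrays from 5 µg/ml on, and 0.02 and -0.11 on the arrays at 0 and 1 µg/ml. No test of the difference between complexes was made.

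The first step, 5 and 10 µg/ml against 0 and 1 µg/ml, was made within arrays of 2 days of selection. Of the 56 strains, 6 rose and 0 fell at an adjusted p under 0.05 in limma, against 1.18% of all strains that rose and 2.55% that fell. All 6 were ATP synthase strains, ATP5, ATP7, ATP17, ATP11, ATP12 and AEP2. The median difference was 1.72 for the ATP synthase, 0.43 for complex III, 0.19 for complex IV, 0.72 for complex II and 0.03 for all strains. At an unadjusted p under 0.05 in limma, 20 of the 56 strains rose and 4 fell, beside 375 and 628 of all 5325 strains. Of the 20 and 4, 13 and 2 were ATP synthase strains and 5 and 2 were strains of complexes III and IV. The 6 calls shared 1 estimate of the spread over all 10 arrays: with the arrays of 2 days alone, a fit added after the values were seen, 0 of the 56 and 0 of all strains were called as higher, and 16 and 2 of the 56 rose and fell at an unadjusted p under 0.05. Without the array at 0, 1 or 5 µg/ml there were 0 calls that rose as well, where all strains gave 2, 10 and 19 in place of 63. Without the one at 10, 15 or 20 µg/ml there were 4, beside 34, 29 and 29 of all strains.

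Over the whole range, a straight line against dose gave 14 strains that rose and 0 that fell, with 27 and 1 at an unadjusted p under 0.05 in limma. Among all strains 10.3% rose and 9.13% fell, and 1000 and 775 of the 5325 did so at an unadjusted p under 0.05 in limma. The strains that rose were 6 of 16 for the ATP synthase, 2 of 13 for complex III, 5 of 22 for complex IV and 1 of 4 for complex II. The median fitted change from 0 to 40 µg/ml was 1.31 for the ATP synthase, 0.63 for complex III, 0.70 for complex IV, 0.83 for complex II and 0.09 for all strains. With the arrays scaled to equal spread these medians were 0.70, 0.48, 0.34, 0.65 and 0.08, and after quantile normalisation 0.51, 0.46, 0.27, 0.52 and 0.03, so that complex II then stood level with the ATP synthase. The count rests on how the wider spread at high doses is treated, since with all arrays scaled to the same spread COX19 was the only one of the 56 called, beside 55 of all strains in place of 547. It also moved with single arrays, from 5 without the array at 1 µg/ml to 21 without the one at 5 µg/ml (372 and 614 of all strains).

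A plateau is poorly described by a line, and a comparison of all arrays from 5 to 40 µg/ml with those at 0 and 1 µg/ml was added after the courses were seen. It gave 13 strains that rose and 0 that fell, against 5.78% and 6.87% of all strains. At an unadjusted p under 0.05 in limma, 30 and 2 of the 56 rose and fell, beside 706 and 770 of all 5325. The 13 called strains were 10 ATP synthase strains, COX19, COX23 and SDH3. ATP5, ATP7, ATP17, ATP11, ATP12 and AEP2 kept this call whichever array was left out, while the count of calls was 6 without the array at 1 µg/ml and 7 without the one at 0 µg/ml, beside 127 and 104 of all strains in place of 308. From the second section of the array alone, ATP12 lost this call, at 0.79 against 2.25 in the first. In 12 of the 16 ATP synthase strains every array from 5 µg/ml on was above both lower arrays. The same held in 5 of 13 for complex III, 6 of 22 for complex IV, 1 of 4 for complex II and 10.9% of all strains. The opposite, with every array below, held for ATP15 and COX18 and for 10.6% of all strains.

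**Figure D2:**
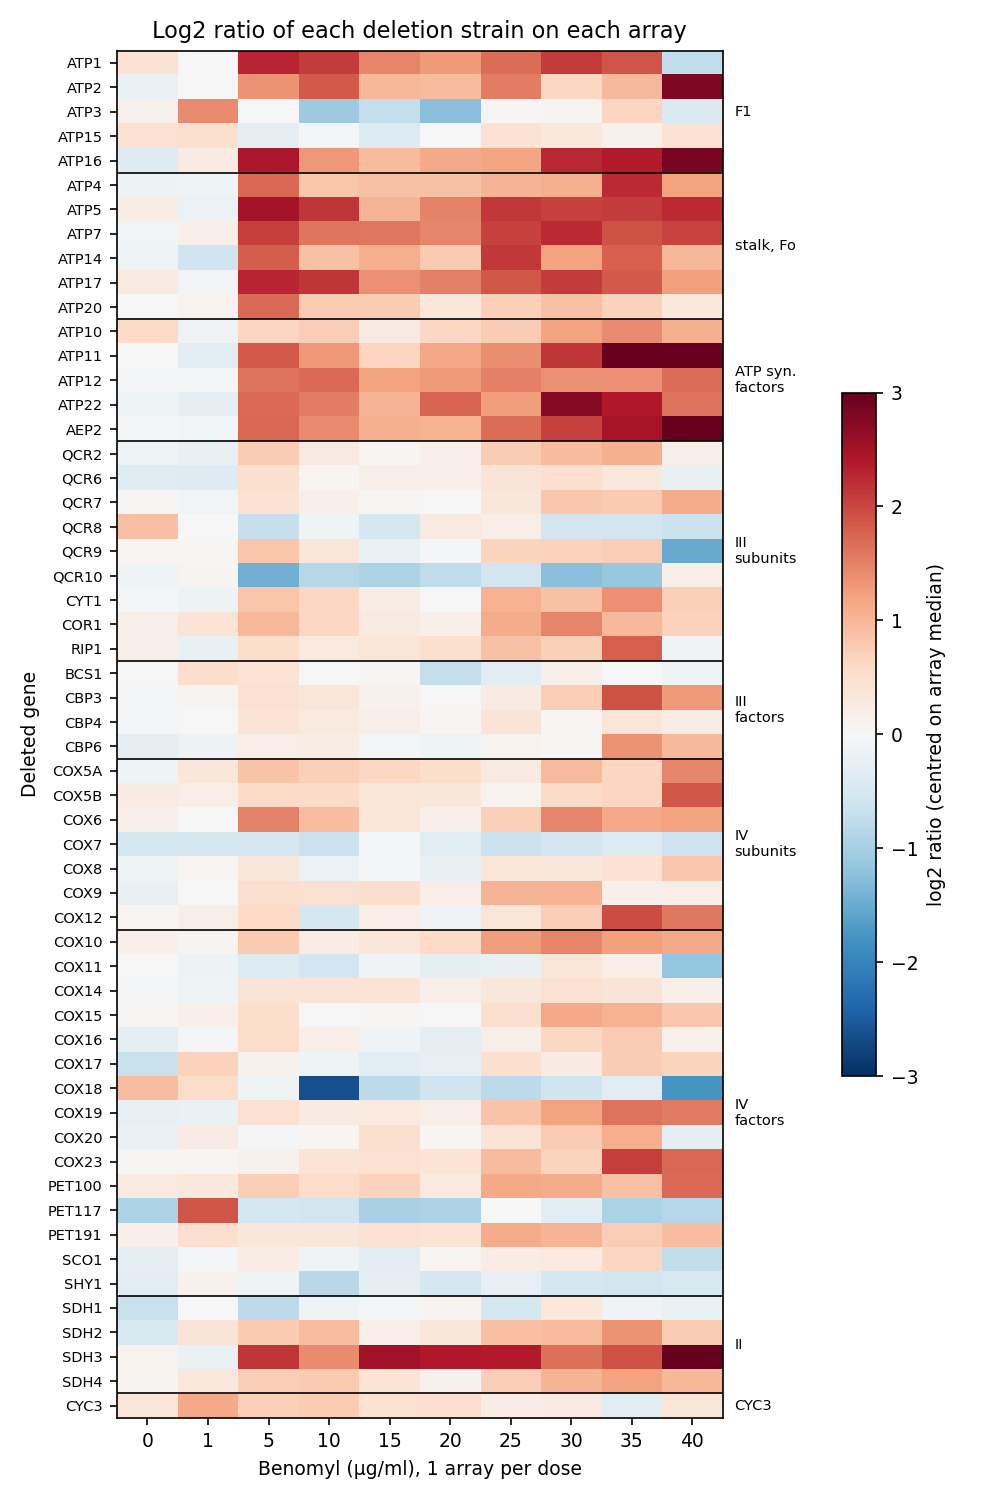
Log2 ratio (colour, centred on the array median, colours end at -3 and 3) of each of the 56 deletion strains (rows, by complex) on the array of each benomyl dose in µg/ml (columns). Most ATP synthase rows turn red between 1 and 5 µg/ml, with ATP3, ATP15 and ATP10 paler or blue, and the SDH3 row is red in the same columns.

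In the ATP synthase, all 6 strains for subunits of the stalk and of Fo had every array from 5 µg/ml on above both lower arrays. Their differences at 5 and 10 µg/ml ran from 1.18 to 2.30. ATP5 (YDR298C) encodes the subunit that joins the stalk to the top of F1. Its strain read 0.22, -0.18, 2.50, 2.14, 1.02, 1.49, 2.12, 2.04, 2.09 and 2.24 in order of dose, as do all lists of 10 values below. It was high on every array from 5 µg/ml on, lowest among these at 15 µg/ml, and at 5 µg/ml ranked 20 from the top of all strains. The difference between 5 and 10 and 0 and 1 µg/ml was 2.30 ± 0.29 (SE, limma, adjusted p = 0.0178). ATP7 (YKL016C) encodes another stalk subunit and read -0.08, 0.15, 2.07, 1.60, 1.59, 1.47, 2.04, 2.24, 1.90 and 2.02. These values were between 1.47 and 2.24 on all arrays from 5 µg/ml on, and this strain passed both the first step, at 1.80 ± 0.27, and the line, at 1.62 ± 0.52 (limma, adjusted p = 0.0178 and 0.0488). The line's call for ATP7 was lost when any array but the one at 5 µg/ml was left out, at 1.15 to 1.90.

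ATP17, for an Fo subunit, rose by 2.12 ± 0.29 at the first step (adjusted p = 0.0178 in limma), with values from 1.24 to 2.28 at 5 µg/ml and above. ATP4, a main subunit of the stalk, lay between 0.84 and 2.23 there, and ATP14, another stalk subunit, between 0.78 and 2.11. Both were called in the comparison of 5 to 40 with 0 and 1 µg/ml, at 1.38 ± 0.32 and 1.70 ± 0.36 (limma, adjusted p = 0.0244 and 0.0177). ATP4 gave 1.69 in the first section and 1.08 in the second, where this call was lost. ATP14 gave 0.69 in the first section, where its call was lost, and 2.71 in the second. The ATP4 call was also lost without the array at 0, 1, 15, 20 or 30 µg/ml, and that of ATP14 without the one at 0 or 1 µg/ml. ATP20 (YPR020W) encodes a subunit of the dimer interface that is not needed for catalysis, and its strain had the lowest fitted change of the 6. It read -0.02, 0.10, 1.70, 0.75, 0.76, 0.34, 0.72, 0.87, 0.68 and 0.31. The value at 5 µg/ml was near that of ATP4, 1.72, and the later values were lower, with a fitted line of 0.05 ± 0.45.

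The F1 subunits were divided. ATP1 (YBL099W) encodes the alpha subunit and read 0.43, 0.01, 2.29, 2.10, 1.47, 1.28, 1.67, 2.09, 1.88 and -0.75. It was among the highest strains up to 35 µg/ml and below the median at 40 µg/ml, where it was the lowest of the 16 ATP synthase strains. Its first step was 1.98 ± 0.70 and was not called (adjusted p = 0.17 in limma); without the array at 35 or 40 µg/ml it was. ATP2, for the catalytic beta subunit, read 0.98 at 35 µg/ml, where its sections gave -0.41 and 2.37, and 2.81 at 40 µg/ml, where they gave 2.88 and 2.74. ATP16 (YDL004W) encodes the delta subunit of the rotor, and cells without it are known to lose mitochondrial DNA. Its strain read -0.38, 0.25, 2.42, 1.31, 0.95, 1.14, 1.18, 2.26, 2.37 and 2.84, and both ends of the drug range were higher than its middle. The fitted change was 2.12 ± 0.62 (limma, adjusted p = 0.0344), and its call was lost without the array at 0, 1, 30, 35 or 40 µg/ml, at 1.65 to 2.10.

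The other F1 strains lacked this course. ATP3 (YBR039W) encodes the gamma subunit, the rotating shaft, and read 0.12, 1.41, 0.01, -1.09, -0.71, -1.25, 0.03, 0.09, 0.65 and -0.44. It was highest at 1 µg/ml, and at 10, 15 and 20 µg/ml it was the lowest ATP synthase strain. The value at 1 µg/ml came from 1 section of the array, at 3.21 against -0.40 in the other. ATP15, for the epsilon subunit, stayed between -0.42 and 0.44 from 5 µg/ml on, and its sections gave fitted changes of 1.75 and -1.43, in opposite directions.

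**Figure D3:**
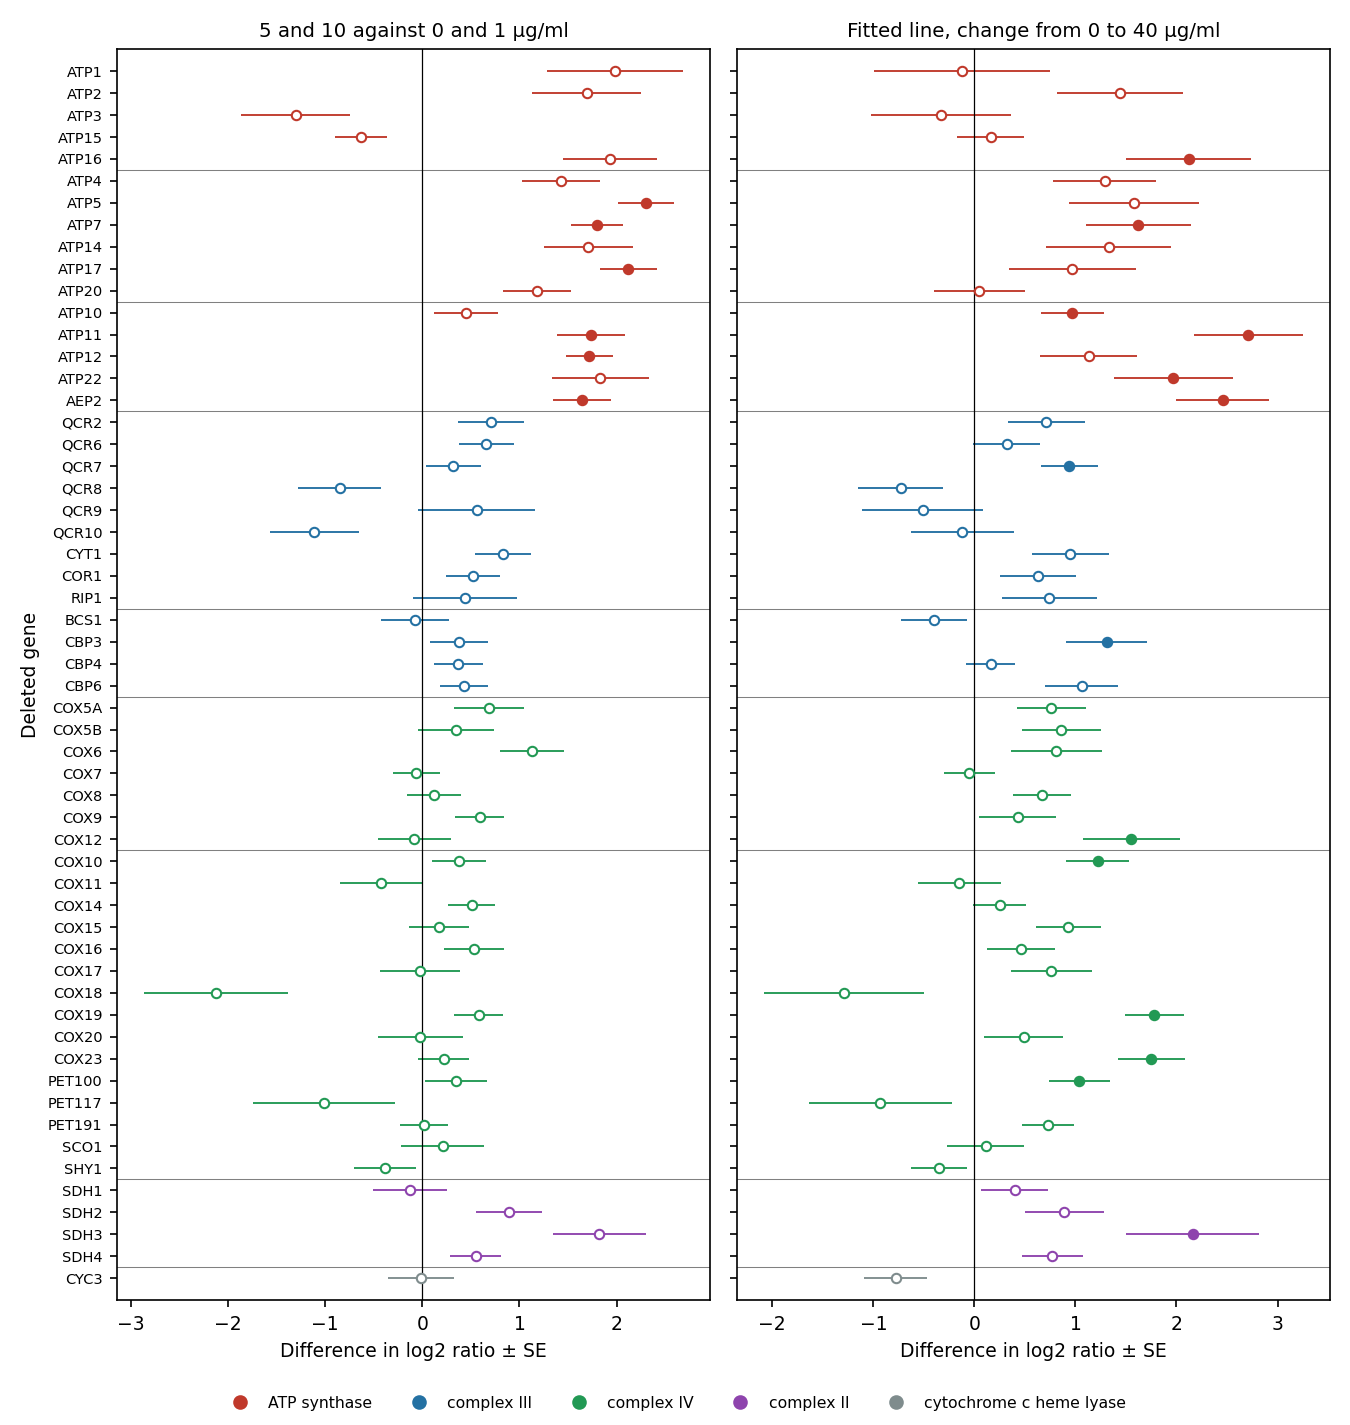
Difference in log2 ratio (horizontal axis) with its standard error (bars) for each deleted gene (rows, by complex) between 5 and 10 and 0 and 1 µg/ml benomyl (left) and as the fitted line from 0 to 40 µg/ml (right); filled circles passed an adjusted p of 0.05 in limma. On the left the 6 filled circles are all ATP synthase strains, between 1.64 and 2.30, and on the right the 14 filled circles spread over all 4 complexes.

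Assembly and expression factors of the ATP synthase rose in 4 of 5 strains in the dose trend. ATP11 (YNL315C) encodes the chaperone of the beta subunit. Its strain read -0.02, -0.31, 1.85, 1.30, 0.64, 1.16, 1.39, 2.15, 3.09 and 2.97. It was high at 5 µg/ml, lowest of the drug arrays from there on at 15 µg/ml and highest at 35 µg/ml, with a fitted change of 2.71 ± 0.54 (limma, adjusted p = 0.00582), the largest among the 56 strains. AEP2 (YMR282C) is needed to translate the mitochondrial mRNA of the Fo rotor ring subunit. This strain read -0.05, -0.08, 1.73, 1.41, 1.06, 1.04, 1.67, 2.05, 2.47 and 3.08 and had the same shape, with a fitted change of 2.46 ± 0.46 (limma, adjusted p = 0.00419). ATP11 and AEP2 kept the call of the line whichever array was left out, and both lost it with the arrays scaled to equal spread.

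ATP22 (YDR350C) is needed to translate the mitochondrial mRNA of another Fo subunit, Atp6. Its values were -0.12, -0.29, 1.70, 1.54, 1.03, 1.74, 1.25, 2.73, 2.40 and 1.63, highest at 30 µg/ml, and the fitted change was 1.97 ± 0.59 (limma, adjusted p = 0.0376). ATP12, the chaperone of the alpha subunit, had averages over its spots between 1.21 and 1.71 from 5 µg/ml on, while the sections parted with dose: at 5 µg/ml they read 2.04 and 1.23, and at 40 µg/ml 3.11 and 0.24. It was called at the first step at 1.72 ± 0.24 (adjusted p = 0.0178) and not by the line. ATP10 (YLR393W) acts in Fo assembly and in maturation of Atp6. It read 0.57, -0.11, 0.64, 0.73, 0.27, 0.62, 0.75, 1.20, 1.41 and 1.07, a weaker course than in the other factors. The line passed at 0.97 ± 0.31 (limma, adjusted p = 0.0451), but the sections of the array disagreed, at 2.58 and -0.63. Of the 10 arrays, leaving out any but those at 0 and 5 µg/ml ended the ATP10 call (0.77 to 1.11), and leaving out the one at 0, 1, 15, 30 or 35 µg/ml ended that of ATP22 (1.56 to 1.95).

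Values in complex III were lower than in the ATP synthase, at most 0.98 at 5 µg/ml. CYT1 (YOR065W) encodes cytochrome c1 and had the highest fitted change of the 9 subunits. It read -0.06, -0.15, 0.83, 0.61, 0.23, -0.02, 1.04, 0.88, 1.37 and 0.71, lower at 15 and 20 µg/ml than on either side. Its line, 0.95 ± 0.38, was not called (limma, adjusted p = 0.108). QCR7 (YDR529C), for a subunit that binds cytochrome b, read 0.04, -0.08, 0.44, 0.15, 0.07, -0.02, 0.34, 0.80, 0.78 and 1.12. It rose late, from 30 µg/ml on, and the line was called at 0.94 ± 0.28 (limma, adjusted p = 0.0384). That call was lost without the array at 0, 1, 10, 15, 30, 35 or 40 µg/ml, with changes of 0.76 to 1.00. The core proteins COR1 and QCR2 and the Rieske iron-sulfur protein RIP1 peaked at 1.47, 1.07 and 1.79 and were not called.

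QCR8, QCR9 and QCR10 had lines below 0, unlike QCR6, another small subunit, whose values from 5 µg/ml on ran from -0.23 to 0.51 and were all above those at 0 and 1 µg/ml. QCR8 (YJL166W), next to cytochrome b, read 0.90, 0.01, -0.68, -0.13, -0.50, 0.28, 0.19, -0.55, -0.56 and -0.64. It was highest on the array without drug and had the lowest fitted change of the subunits, -0.73 ± 0.42, which was not called (limma, adjusted p = 0.25). QCR10 (YHR001W-A) read -0.14, 0.08, -1.44, -0.85, -0.95, -0.76, -0.56, -1.26, -1.14 and 0.20. This strain was low on every array from 5 to 35 µg/ml, and at 5 µg/ml it was the lowest of the 56. The first step was -1.11 ± 0.46 and was not called (limma, adjusted p = 0.24). QCR9 (YGR183C) read 0.07, 0.03, 0.83, 0.37, -0.20, -0.05, 0.67, 0.69, 0.73 and -1.51. Like ATP1 it stood above the median at 30 and 35 µg/ml and was below it at 40 µg/ml.

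Among the factors for complex III, CBP3 (YPL215W) acts in translation and assembly of cytochrome b and was called. It read -0.03, 0.09, 0.46, 0.36, 0.13, -0.02, 0.24, 0.73, 1.90 and 1.27, and most of the change lay at 35 and 40 µg/ml. The fitted change was 1.31 ± 0.40 (limma, adjusted p = 0.0412), and it was not called without the array at 0, 1, 10, 15, 30, 35 or 40 µg/ml, at 0.90 to 1.39. CBP6, its partner protein, showed the same late values, 1.35 and 0.98 on these arrays, at 1.06 ± 0.36 (adjusted p = 0.0628). BCS1 (YDR375C) inserts the Rieske protein and read 0.02, 0.52, 0.40, 0.00, 0.03, -0.72, -0.34, 0.16, 0.02 and -0.11, with no value 2-fold from the median.

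From 0 to 20 µg/ml nearly all complex IV values were within 2-fold of the median, with PET117 at 1 µg/ml, COX6 at 5 µg/ml and COX18 at 10 µg/ml outside. COX19 (YLL018C-A) encodes a cysteine-rich protein of the intermembrane space that acts in assembly of cytochrome c oxidase. Its strain read -0.24, -0.19, 0.45, 0.27, 0.29, 0.18, 0.85, 1.21, 1.63 and 1.57. The fitted change of 1.78 ± 0.29 (limma, adjusted p = 0.0022) had the lowest adjusted p of the 56 strains. COX23 (YHR116W), for a protein of the same family, read 0.04, 0.05, 0.13, 0.40, 0.45, 0.42, 0.94, 0.67, 2.07 and 1.72. It stood at the median on 3 arrays, above it from 10 µg/ml on and highest at 35 µg/ml, and rose by 1.75 ± 0.33 (limma, adjusted p = 0.00428). Both kept the call whichever array was left out.

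COX10 (YPL172C) makes heme O, a precursor of the heme A of the oxidase. It read 0.15, 0.08, 0.78, 0.22, 0.37, 0.60, 1.25, 1.47, 1.22 and 1.14, higher from 25 µg/ml on than before. The change was 1.22 ± 0.31 (limma, adjusted p = 0.0176). PET100 (YDR079W), a chaperone of oxidase assembly, read 0.26, 0.32, 0.74, 0.54, 0.70, 0.30, 1.13, 1.11, 0.89 and 1.70, also higher from 25 µg/ml on. In its first section the values at 25, 30 and 35 µg/ml were 0.59, 0.76 and 0.52, below 0.91 at 5 µg/ml. The line there was 0.74 and not called. From all spots the PET100 change was 1.04 ± 0.30 (limma, adjusted p = 0.0327). COX12 (YLR038C) encodes a small subunit on the side facing cytochrome c. It read 0.07, 0.17, 0.60, -0.51, 0.19, -0.10, 0.36, 0.74, 1.96 and 1.59, with no steady course below 30 µg/ml, and changed by 1.55 ± 0.48 (limma, adjusted p = 0.0432). The COX12 call was lost without the array at 0, 1, 10, 15, 30, 35 or 40 µg/ml (1.15 to 1.71), that of PET100 without the one at 0, 1, 10, 25, 30 or 40 µg/ml (0.77 to 1.03) and that of COX10 without the one at 1 µg/ml (1.16).

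Among the complex IV strains with a line below 0 were COX7, COX11 and COX18. COX7 (YMR256C), for a small subunit, read -0.52, -0.51, -0.52, -0.64, -0.07, -0.35, -0.64, -0.56, -0.42 and -0.63. It was low without drug as well, near the median at 15 µg/ml alone, and its line was -0.05 ± 0.25. COX11 (YPL132W), which delivers copper to the catalytic core, read 0.02, -0.16, -0.42, -0.57, -0.11, -0.28, -0.22, 0.36, 0.21 and -1.17, and was among the 3 lowest of the 56 at 40 µg/ml. COX18 (YGR062C), which helps to insert the Cox2 subunit into the membrane, read 0.93, 0.55, -0.13, -2.63, -0.79, -0.59, -0.79, -0.60, -0.34 and -1.76. In the average over spots, every array with at least 5 µg/ml was below both lower ones. The first section alone did not show this, at 0.19, 0.04 and 0.18 at 0, 1 and 5 µg/ml. At 10 µg/ml the sections read -1.24 and -4.02. The line was -1.29 ± 0.79, and it was called at -1.76 when the 10 µg/ml array was left out (limma, adjusted p = 0.276 and 0.0198). Of the other complex IV strains, COX6 was the highest at 5 µg/ml, and PET117 read 1.89 at 1 µg/ml and between -0.98 and -0.01 from 5 µg/ml on. The PET117 value at 1 µg/ml came from the first section alone, since the second had none there.

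COX5A and COX5B encode exchangeable forms of 1 subunit, made with and without oxygen. COX5A (YNL052W) read -0.14, 0.34, 0.86, 0.72, 0.63, 0.52, 0.27, 0.94, 0.64 and 1.46. COX5B (YIL111W) read 0.24, 0.20, 0.57, 0.57, 0.37, 0.33, 0.10, 0.58, 0.65 and 1.87. Both strains ran side by side, with COX5A higher on the 7 arrays from 1 to 30 µg/ml and COX5B higher at 0, 35 and 40 µg/ml. The slope of their difference, COX5A minus COX5B, was -0.10 over the 40 µg/ml (two-sided permutation test over the 10 arrays, 100000 resamples, p = 0.702). It had either sign when single arrays were left out, from -0.38 to 0.23, so no difference in course was detectable with these arrays.

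In complex II, SDH3 stood apart from the other subunits in the averages over spots. SDH3 (YKL141W) encodes a membrane anchor of succinate dehydrogenase, and its protein is also part of a translocase for carrier proteins in the inner membrane. The strain read 0.11, -0.21, 2.14, 1.41, 2.51, 2.40, 2.39, 1.65, 1.90 and 3.26. It was the highest of the 56 strains at 15, 20, 25 and 40 µg/ml with no lower middle of the range, and it rose by 2.16 ± 0.66 on the line (limma, adjusted p = 0.0421). This call was lost without the array at 0, 1, 10, 20, 25 or 40 µg/ml, at 1.63 to 2.18, and in the second section of the array, which gave 1.19 against 3.12 in the first. SDH1 (YKL148C), for the catalytic flavoprotein, read -0.67, 0.01, -0.79, -0.13, -0.06, 0.08, -0.52, 0.32, -0.10 and -0.19, at or below the median on most arrays. SDH2, for the iron-sulfur subunit, and SDH4, for the other anchor, had values up to 1.34 and 1.20 and were not called. The sections disagreed for SDH2, with a line of 2.09 in the first, where it was called, and -0.31 in the second. At 35 µg/ml they read 3.09 and -0.41. CYC3 (YAL039C) encodes the lyase that attaches heme to cytochrome c. It read 0.36, 1.14, 0.71, 0.76, 0.45, 0.50, 0.23, 0.25, -0.35 and 0.36, highest at 1 µg/ml, with a line of -0.78 ± 0.31 that was not called (limma, adjusted p = 0.102) and whose sections gave 0.77 and -2.32.

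The middle of the range was compared with 5 and 10 µg/ml. All 16 ATP synthase strains had a lower mean at 15 and 20 µg/ml, by a median of -0.48, against -0.32 for complex III, -0.13 for complex IV and -0.02 for all strains. With equal spread the ATP synthase and complex III medians were -0.28 and -0.33, in the opposite order, and the ATP synthase median was -0.27 without the array at 5 µg/ml and -0.83 without the one at 10 µg/ml. None was called: among all strains 0.0% rose and 0.0% fell at an adjusted p under 0.05 in limma. At an unadjusted p under 0.05, 0 of the 56 rose and 3 fell (ATP5, ATP17 and COX6), beside 255 and 76 of all strains. Selection lasted 3 and 4 days on the middle arrays and 2 days on the lower ones, so dose and days cannot be told apart here.

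At 25 to 40 µg/ml against 15 and 20 µg/ml, 4 strains rose and 0 fell, against 5.01% and 4.92% of all strains. At an unadjusted p under 0.05 in limma, 23 and 0 of the 56 rose and fell, beside 742 and 581 of all 5325. The 4 called strains were ATP11 at 1.50 ± 0.31, AEP2 at 1.27 ± 0.26, COX19 at 1.08 ± 0.22 and COX23 at 0.91 ± 0.23. The median difference was 0.57 for the ATP synthase, 0.39 for complex III and 0.48 for complex IV. For the ATP synthase this direction turned when the arrays were scaled to equal spread, to -0.09, or quantile normalised, to -0.14, while the medians of complexes III and IV stayed above 0. Without the array at 15, 20 or 30 µg/ml there were 0 calls, beside 15, 70 and 143 of all strains that rose in place of 267. Without the one at 40 µg/ml there were 7, beside 237.

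Agreement between the sections of the array bears on every strain with 1 spot in each. At 5 µg/ml, 14 of the 16 ATP synthase strains were above the median in both sections and 11 were at least 2-fold above it in both. In order of dose from 10 to 40 µg/ml the first number was 12, 13, 14, 15, 11, 11 and 12 and the second 10, 3, 5, 9, 8, 9 and 8. These counts were not made for all strains, so no share stands beside them. At 15 and 20 µg/ml the sections thus gave 3 and 5 strains, where their average gave 9 on each. Calls at the first step also differed by section. The first alone gave 4 (ATP7, ATP12, ATP16 and ATP17) and the second alone 5 (ATP2, ATP5, ATP7, ATP17 and AEP2). Calls over all strains from single sections at this step are not given here, so these counts have no background beside them. Of the 6 strains called there from all spots, ATP7 and ATP17 were called in both sections and ATP11 in neither. At the first step ATP14 gave 0.80 and 2.61, ATP10 gave 1.25 and -0.35, COX17, for a copper chaperone, gave 1.10 and -1.13, and SHY1, for an oxidase assembly factor, gave -1.47 and 0.71. The ATP12 line was 2.58 in the first section and -0.31 in the second. SDH3 was positive in both, at 1.54 and 2.11.

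**Figure D4:**
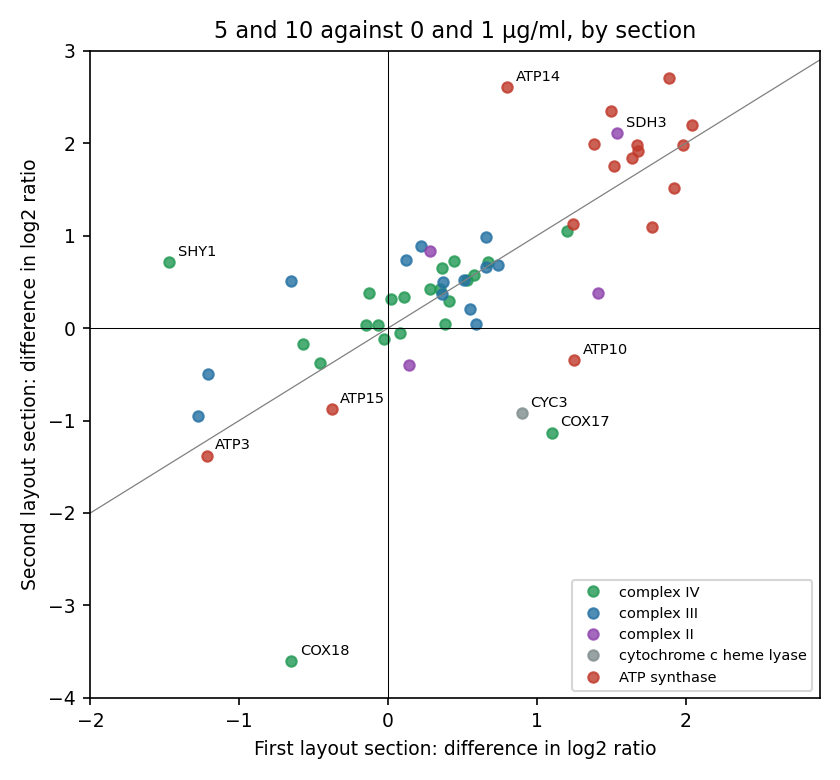
Difference in log2 ratio between 5 and 10 and 0 and 1 µg/ml benomyl from the spots of the first section of the array (horizontal axis) and of the second section (vertical axis), 1 point per deleted gene, coloured by complex, with the line of equal values. Most ATP synthase strains lie high in both, such as ATP5 at 1.89 and 2.71, while ATP10, COX17, CYC3 and SHY1 have opposite signs.

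Strains for related mitochondrial functions were counted in lists drawn up by function, with earlier results of these data known. Among all strains 10.3% rose and 9.13% fell in the dose trend, with 1000 and 775 of 5325 at an unadjusted p under 0.05 in limma. Of 22 factors for the expression of mitochondrially encoded subunits, 4 rose and 0 fell in the dose trend (8 and 1 at an unadjusted p under 0.05), with AEP1 at 2.22 ± 0.43 and AEP3 at 2.00 ± 0.57 (limma, adjusted p = 0.00513 and 0.0296). Both act on mitochondrial mRNAs of ATP synthase subunits. AEP3 also rose at the first step, by 1.87 ± 0.42 (limma, adjusted p = 0.0493). PET494, a translational activator of the oxidase subunit Cox3, was outside the rule for naming and was singled out after its values were seen: it fell at the first step by 1.59 on the log2 scale (SE 0.35, limma, adjusted p = 0.0447).

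Of 20 strains for other subunits and assembly factors, 3 rose and 0 fell in the dose trend, against 10.3% and 9.13% of all strains. Among the 3 were ATP23 at 1.36 ± 0.43 and CMC1 at 0.97 ± 0.27 (limma, adjusted p = 0.0446 and 0.0257). ATP23 encodes a protease and chaperone for Atp6, and CMC1 an oxidase assembly factor. ATP18, a small Fo subunit that was not on the member list, was named after its values were seen. It read 0.04, 0.12, 2.18, 1.64, 0.98, 1.03, 1.78, 1.35, 1.45 and 1.76, the course of the Fo subunits above, and its first step was 1.83 ± 0.29 (limma, adjusted p = 0.0188).

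Among 17 strains for electron carriers, ubiquinone synthesis and NADH dehydrogenases, 1 rose and 0 fell in the dose trend. Over all strains these shares were 10.3% and 9.13%, and the median of the 17 at 5 µg/ml was 0.09. The strain that rose was CYC2, which acts in heme attachment to cytochrome c, at 0.94 ± 0.27 (limma, adjusted p = 0.0312). Of the 4 subunits of the HAP complex, the activator of respiratory genes, HAP5 rose by 1.04 ± 0.24 (limma, adjusted p = 0.0117). HAP4, the activating subunit, was named after its values were seen and read -0.08, 0.08, 1.72, 1.54, 0.40, 0.33, 1.35, 1.41, 1.36 and 0.61. Like the ATP synthase median it was high at 5 µg/ml and lower at 15 and 20 µg/ml, with a first step of 1.63 ± 0.30 (limma, adjusted p = 0.028). HAP2 and HAP3 were not called there, at -0.34 ± 0.26 (limma, adjusted p = 0.535) and -1.12 ± 0.61 (limma, adjusted p = 0.375), and the median first step of the 4 strains was -0.14.

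Strains for maintenance and transcription of mitochondrial DNA rose in 4 of 9 cases and fell in 0 in the dose trend, against 10.3% and 9.13% of all strains. The median of the 9 went from 0.78 at 5 µg/ml to 1.79 at 35 µg/ml. MTF1, the specificity factor of the mitochondrial RNA polymerase, read 0.11, -0.44, 0.79, 0.63, 0.67, 1.22, 2.14, 2.55, 2.56 and 3.98. It rose, with its highest value at 40 µg/ml, by 3.63 ± 0.38 (limma, adjusted p = 0.000226). MGM101, which binds mitochondrial DNA and is needed to keep it, changed by 2.86 ± 0.54 (limma, adjusted p = 0.00428), and its value at 5 µg/ml was 2.06.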

How the data were processed

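Per the labels, GenePix hardware and software were used to scan the arrays and read the spots. The authors deposited log2 ratios per spot; the numerator and any normalisation are not given in the sources used here. Of 22575 spots, 18794 were named by the platform annotation, each to 1 of 5325 genes, and 5321 symbols were updated through the gene number. In 18 cases a coded ratio of 1000000 was set to missing.

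Ratios were centred on each array's median over named spots and averaged per gene over all its spots. The lowest correlation between arrays over all spots was 0.024. Limma 3.58.1 in R 4.3.3 fitted a line against dose (8 residual and 3.34 prior degrees of freedom), and means of 5 dose bands (0 and 1, 5 and 10, 15 and 20, 25 and 30, 35 and 40 µg/ml; 5 residual and 3.44 prior degrees of freedom), on all 5325 strains. The Benjamini-Hochberg adjustment ran over all of them, with a threshold of 0.05. The fits were also run on simulated data. There each strain had the same spread on every array, so that run cannot show how the wider spread at high doses affects the calls. COX5A and COX5B were compared with a permutation test.

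Members and lists were chosen with earlier results of these data known. Values on every array are given for members called by the line, those with the highest and lowest fitted change in each subgroup, the 3 highest and 3 lowest at 5 and at 40 µg/ml, COX5A and COX5B; ATP18 and HAP4 are exceptions. In each related list the largest 2 fitted changes among called strains are named. By RefSeq positions, no other named strain lacked a gene that overlaps a member. No sequences are shown. Precision is limited by the number of arrays.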

Additional observations from a re-analysis of the deposited data

How the results depend on the processing

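Each array was left out in turn, and centring, scaling, spot averaging, filter, prior, dose scale, days and sections were changed 1 at a time. The 14 strains that rose in the dose trend became 1 with equal spread, 2 after quantile normalisation, 7 from the second section, 8 against log2(dose + 1), 4 with days as a covariate and 2 on the 4-day arrays alone, while the 547 of all strains that rose became 55, 111, 458, 232, 157 and 93 in the same order. It was 5 to 21 with 1 array left out. The count was 6 without the array at 0 µg/ml, 7 without the one at 10, 30 or 35 µg/ml and 8 without the one at 15 or 40 µg/ml. The 0 that fell became 1 (CYC3) after quantile normalisation and 2 (ATP15 and CYC3) from the second section, and was 0 to 1 with 1 array left out. With the ratios as deposited 19 rose, beside 851 of all strains in place of 547. The fitted changes then had a median of 0.33 over all strains, against 0.09 after centring.

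The median fitted change of the ATP synthase strains stayed above 0 with each scaling, from 0.51 after quantile normalisation, where complexes III and II had 0.46 and 0.52, to 1.55 as deposited, where they had 0.87 and 1.07. At the first step, the 6 calls became 9 with equal spread, 12 after quantile normalisation and 0 on the 2-day arrays alone (120, 152 and 0 of all strains in place of 63), and 0 to 7 with 1 array left out; 0 to 1 fell. At 25 to 40 against 15 and 20 µg/ml, the 4 calls became 13 with ratios as deposited, 0 with equal spread and 0 after quantile normalisation (433, 40 and 46 of all strains in place of 267), and 0 to 7 with 1 array left out. In the added comparison of 5 to 40 with 0 and 1 µg/ml, 6 to 19 rose with 1 array left out, and the 0 that fell became 2 (ATP15 and COX18) with equal spread, 1 (ATP15) after quantile normalisation and 0 to 1 with 1 array left out. At 15 and 20 against 5 and 10 µg/ml there were 0 calls under each alternative run.

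The slope of COX5A minus COX5B, -0.10, was 0.09 with equal spread, 0.02 in the first section and 0.23 without the 40 µg/ml array, in a range of -0.38 to 0.23 with 1 array left out. Of the 14 strains called by the line, the fitted change of ATP10 reversed, to -0.63, in the second section. Lines of ATP1, ATP3, ATP20, BCS1, COX7, COX11, CYC3, QCR9, QCR10 and SDH1, which were not called over all arrays, also had either sign across the alternatives. The cause of these differences was not tested. No paired analysis was possible because each dose had 1 array and the labels give no replicate numbers. The number of arrays, and at low doses the weak agreement between sections, limit which changes can be called.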
